A study of Rattus norvegicus with 6 samples.

Results

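The miR-29 family was examined in small RNA of the peri-infarct cortex, the tissue around a stroke lesion. Its members were taken as every row of the count table whose name starts with rno-miR-29a-, rno-miR-29b- or rno-miR-29c-. This gave 6 of the 493 mature miRNAs in the table, namely rno-miR-29a-3p, rno-miR-29a-5p, rno-miR-29b-3p, rno-miR-29b-5p, rno-miR-29c-3p and rno-miR-29c-5p, named without the species prefix rno from here on. All animals were male Sprague-Dawley rats of 250 to 270 g, and an age was not given. In the MCAO group (n = 3), the right middle cerebral artery had been occluded for 90 min and then reperfused, and the cortex was taken at 7 days. In the MCAO + rTMS group (n = 3), rats had the same occlusion and then received repetitive transcranial magnetic stimulation (rTMS), in which a coil on the head delivers magnetic pulses. It was given at 10 Hz for 10 min a day over 7 days, with the coil above the right primary motor cortex. The study's methods describe short pulse trains with longer rests between them, which together last longer than 10 min. Which daily duration applies is not settled here. For the stimulated rats the labels do not give a day, and the study's supplementary material places the compared tissue of both groups at 7 days after modeling. In the study's methods, however, rTMS began the day after reperfusion and lasted 7 days. Whether both groups were taken at the same time after the stroke is therefore not settled here. Sham-operated rats were not analysed here, so the levels describe stroke tissue with and without rTMS.

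A miRNA is cut from a hairpin precursor, whose left and right arms give the 5p and the 3p product. It lowers the output of messenger RNAs that pair with its seed, the bases 2 to 8 of the mature sequence. The 3p arms of miR-29 are the products generally treated as active. They are known to target collagens and other genes of the extracellular matrix, the DNA methyltransferases of the Dnmt3 type, and, in mature neurons, genes of the pro-apoptotic BH3-only group. The family is also known to accumulate as neurons and astrocytes mature.

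The mature sequences are shown because the 3p members share 1 seed and differ at few other bases, which sets how well reads of one member can be kept apart from those of another. They were taken from RefSeq, are written 5′ to 3′, and have the seed in capitals.
miR-29a-3p: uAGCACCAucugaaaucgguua
miR-29b-3p: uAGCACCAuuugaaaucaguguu
miR-29c-3p: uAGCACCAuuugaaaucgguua
miR-29a-5p: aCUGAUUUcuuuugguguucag
miR-29b-5p: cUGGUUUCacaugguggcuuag
miR-29c-5p: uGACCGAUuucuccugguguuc
Of the 693 rat mature sequences in the RefSeq table, 3 carried the seed AGCACCA, and they were the 3p arms of miR-29a, miR-29b and miR-29c. The 5p arms had 3 different seeds. Counted from 1 at the 5′ end, miR-29a-3p and miR-29c-3p differed at 1 of 22 positions (C10U). Between miR-29a-3p and miR-29b-3p, 4 of the 22 compared positions differed (C10U, G18A, U21G and A22U), and miR-29b-3p was 1 base longer.

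The hairpins are shown with their mature arms in capitals, because the members come from a pair of gene clusters and miR-29b-3p is made from both. Positions are in the GRCr8 assembly as RefSeq gives them. The counts carry no coordinates, and the submitters' processing notes name rn6.
Mir29a, chr4:60617955-60618042, minus strand: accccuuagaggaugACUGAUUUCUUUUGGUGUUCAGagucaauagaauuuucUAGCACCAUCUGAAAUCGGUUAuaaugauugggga
Mir29b1, chr4:60618334-60618414, minus strand: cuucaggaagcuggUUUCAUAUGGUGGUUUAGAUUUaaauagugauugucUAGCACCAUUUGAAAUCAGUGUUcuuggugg
Mir29b2, chr13:109098831-109098911, plus strand: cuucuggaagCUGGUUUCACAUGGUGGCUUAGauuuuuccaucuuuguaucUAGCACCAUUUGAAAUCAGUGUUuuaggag
Mir29c, chr13:109099359-109099446, plus strand: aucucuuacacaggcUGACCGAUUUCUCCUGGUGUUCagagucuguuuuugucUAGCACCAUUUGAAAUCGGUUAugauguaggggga
On chromosome 4, 291 bases lie between Mir29b1 and Mir29a, and on chromosome 13, 447 bases lie between Mir29b2 and Mir29c. The chromosome 13 pair lies inside the long non-coding RNA gene LOC102550527 of the same annotation. The miRNA genes Mir3556a and Mir3587 are annotated on the strand opposite to the chromosome 4 pair and Mir3556b opposite to Mir29c, and their products were not analysed here. The 5p arm of Mir29b1 (miR-29b-1-5p) was not analysed here either, so that miR-29b-5p stood for Mir29b2 only.

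Total counts lay between 10492610 and 15411620 per library. They were scaled with TMM factors, which ranged from 1.16 to 1.39 for MCAO libraries and from 0.695 to 0.864 for MCAO + rTMS libraries, with no overlap. The choice of scaling therefore bears on every level below. Levels are CPM, the number of counts per 1e6 counts of the scaled total. They were not divided by length, since the 6 mature sequences have 22 or 23 bases. Zeros made up 286 of the 2958 listed counts, and no count lay between 1 and 9. The neuronal miRNAs miR-124-3p, miR-128-3p and miR-9a-5p together made up 323008 to 419817 CPM in the MCAO libraries and 423051 to 610145 CPM in the MCAO + rTMS libraries, so that the defining markers of neural tissue were present in each library.

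The 3p arms of the family all fell in the MCAO + rTMS group, to between 35.8% and 48.7% of their MCAO level. The most abundant member, miR-29a-3p, made up nearly the whole family signal and fell by 1.04 on the log2 scale. miR-29b-5p fell by a similar amount, while miR-29c-5p did not pass the test and miR-29a-5p was at the limit of detection. Counted over the table, 4 of the 5 tested members were called lower and 0 higher, where a call means a Benjamini-Hochberg adjusted p below 0.05 from the edgeR quasi-likelihood fit of the 452 miRNAs that passed the filter on low counts. Across all 452, 55.3% were called, 28.1% lower and 27.2% higher. The median log2 fold change was -1.04 over the 5 tested members and -0.21 over all tested miRNAs. A peri-infarct sample mixes cell types, and fewer cells of a type cannot be told apart from less RNA per cell.

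miR-29a-3p had 122802, 96288 and 115923 counts in replicates 1, 2 and 3 of the MCAO group, against 54767, 39422 and 38865 in those of the MCAO + rTMS group. Its level was 7819, 7944 and 7260 CPM in the MCAO libraries and 4119, 3324 and 3777 CPM in the MCAO + rTMS libraries. The lowest MCAO library thus lay far above the highest MCAO + rTMS library. The group means were 7674 ± 364 CPM and 3740 ± 399 CPM (SD, n = 3 each). On the log2 scale the change was -1.04 with a standard error of 0.16 (adjusted p = 0.00209 with edgeR), or 2.05-fold lower. By mean count, it ranked 23 of the 493 miRNAs in the table.

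miR-29b-3p, the product of both clusters, had 3122, 2197 and 1926 counts in the MCAO libraries and 1149, 600 and 435 in the MCAO + rTMS libraries. This corresponded to 199, 181 and 121 CPM against 86.4, 50.6 and 42.3 CPM. The groups did not overlap, and in both of them replicate 1 was the highest and replicate 3 the lowest library. The means were 167 ± 41.0 CPM and 59.8 ± 23.5 CPM (SD, n = 3 each), a log2 change of -1.48 with a standard error of 0.32 (adjusted p = 0.00782 with edgeR). This fall of 2.79-fold was the steepest by point estimate among the tested members. miR-29b-3p was also the only member among the 73 miRNAs that the study selected as differential, with the same counts. miR-29a-3p and miR-29c-3p were not in that selection, which used another test and other thresholds than those used here.

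miR-29c-3p, which differs from miR-29a-3p by the single base C10U, had 702, 448 and 668 counts in the MCAO libraries and 238, 198 and 124 in the MCAO + rTMS libraries. Its level of 44.7, 37.0 and 41.8 CPM in the MCAO group varied little, and the MCAO + rTMS libraries at 17.9, 16.7 and 12.1 CPM lay clearly below it. The means were 41.2 ± 3.91 CPM and 15.5 ± 3.09 CPM (SD, n = 3 each), and the log2 change was -1.40 with a standard error of 0.21 (adjusted p = 0.00177 with edgeR), or 2.64-fold lower. By library, the miR-29c-3p count was 0.319% to 0.576% of the miR-29a-3p count. Whether reads of miR-29a-3p were counted as miR-29c-3p was not tested.

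**Figure D1:**
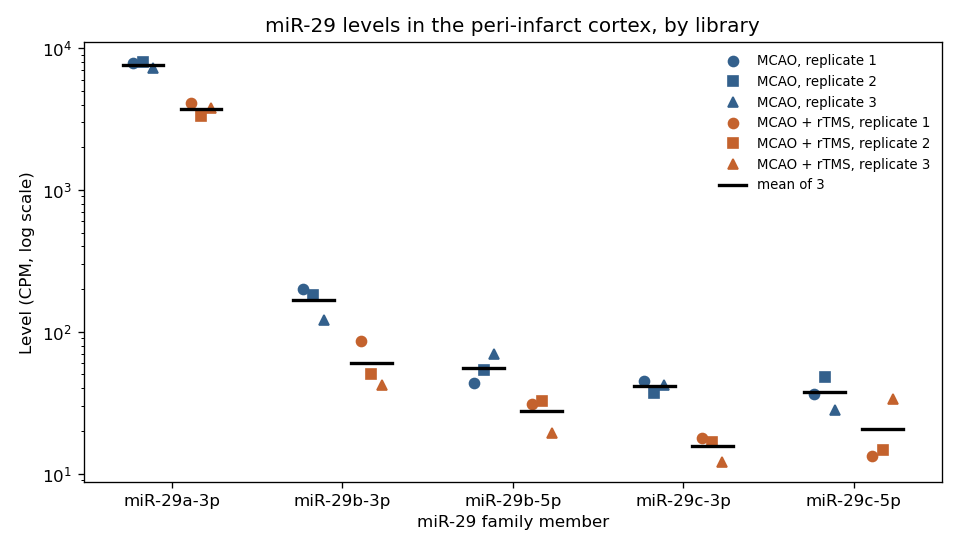
Level of each tested miR-29 member in each library, in CPM on a log scale; blue marks are MCAO and orange marks MCAO + rTMS, the marker shape gives the replicate number, and the bar is the mean of 3. The groups separate for miR-29a-3p, miR-29b-3p, miR-29b-5p and miR-29c-3p, whereas 1 MCAO + rTMS library of miR-29c-5p, at 33.6 CPM, lies among the MCAO libraries.

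The 5p arms of the family behaved less uniformly. miR-29b-5p had 686, 656 and 1118 counts in the MCAO libraries and 414, 386 and 198 in the MCAO + rTMS libraries. At 43.7, 54.1 and 70.0 CPM against 31.1, 32.5 and 19.2 CPM, the groups did not overlap. The means were 55.9 ± 13.3 CPM and 27.6 ± 7.31 CPM (SD, n = 3 each), and the log2 change was -1.02 with a standard error of 0.27 (adjusted p = 0.0168 with edgeR). This call was lost without MCAO replicate 2 (adjusted p = 0.0586 with edgeR) and without MCAO replicate 3 (adjusted p = 0.0638 with edgeR), with log2 fold changes of -1.04 and -0.79.

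miR-29c-5p had 572, 584 and 448 counts in the MCAO libraries and 178, 174 and 346 in the MCAO + rTMS libraries, or 36.4, 48.2 and 28.1 CPM against 13.4, 14.7 and 33.6 CPM. MCAO + rTMS replicate 3 was the highest library of its group and lay above MCAO replicate 3. The means were 37.6 ± 10.1 CPM and 20.6 ± 11.3 CPM (SD, n = 3 each), and the log2 change of -0.87 with its standard error of 0.39 (adjusted p = 0.0925 with edgeR) did not pass the test. Without MCAO + rTMS replicate 3 the log2 fold change was -1.39 (adjusted p = 0.00417 with edgeR).

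miR-29a-5p, the partner of the most abundant member, had 14 counts in MCAO replicate 1 and was listed at 0 in the other 5 libraries, and it failed the filter on low counts. In MCAO replicate 1 it made up 0.0114% of the 122816 counts on both arms of Mir29a (exact 95% binomial confidence interval 0.00623% to 0.0191%, counting error only). Since no count from 1 to 9 is listed, up to 9 counts may be hidden in a library at 0, which allows a share of at most 0.00776% to 0.0232% in those 5 libraries. A difference of miR-29a-5p between the groups was not detectable at this depth.

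Among the 452 tested miRNAs, 92, or 20.4%, were called and at least 2-fold lower. miR-29b-3p ranked 68 from the most negative log2 fold change, miR-29c-3p 71, miR-29a-3p 100, miR-29b-5p 102 and miR-29c-5p 122. The members thus stood within the larger body of miRNAs that fell and not at its extreme. Groups that did not overlap, with MCAO + rTMS lower, were found for 4 of the 5 tested members and for 36.1% of all tested miRNAs, while 66.8% of these did not overlap in one direction or the other.

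**Figure D2:**
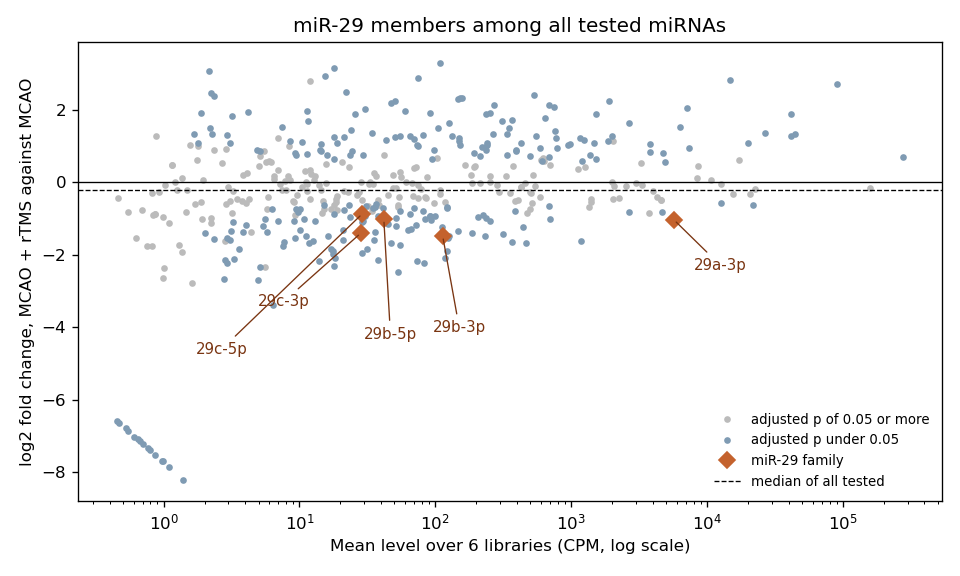
Log2 fold change of MCAO + rTMS against MCAO, plotted against the mean level over 6 libraries (CPM, log scale) for all 452 tested miRNAs; blue points passed and grey points did not pass an adjusted p of 0.05, and orange diamonds are the miR-29 members. All 5 diamonds lie below the dashed median of -0.21, and the separate diagonal at the lower left holds 15 miRNAs listed at 0 in all MCAO + rTMS libraries, for which the fitted fold change has no fixed size.

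The scaling changed the size of the decrease and not its direction. When libraries were scaled by their totals alone, the median of all tested miRNAs shifted by -0.60 to -0.80, and under upper-quartile factors by -0.29 to -0.50. The log2 fold change of miR-29a-3p was -1.66 under scaling by totals and -1.33 under upper-quartile factors. Relative to the median of all tested miRNAs, it was -0.83 under TMM, -0.86 under totals and -0.83 under upper-quartile scaling. miR-29b-3p was at -1.27, -1.26 and -1.27, and miR-29c-3p at -1.20, -1.21 and -1.20, in the same order. Since a scaling factor moves all miRNAs of a library together, these distances are nearly fixed by construction and are no test of the decrease. By library totals or upper-quartile factors, miR-29c-5p was also called lower, with log2 fold changes of -1.54 (adjusted p = 0.0052 with edgeR) and -1.14 (adjusted p = 0.0409 with edgeR).

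**Figure D3:**
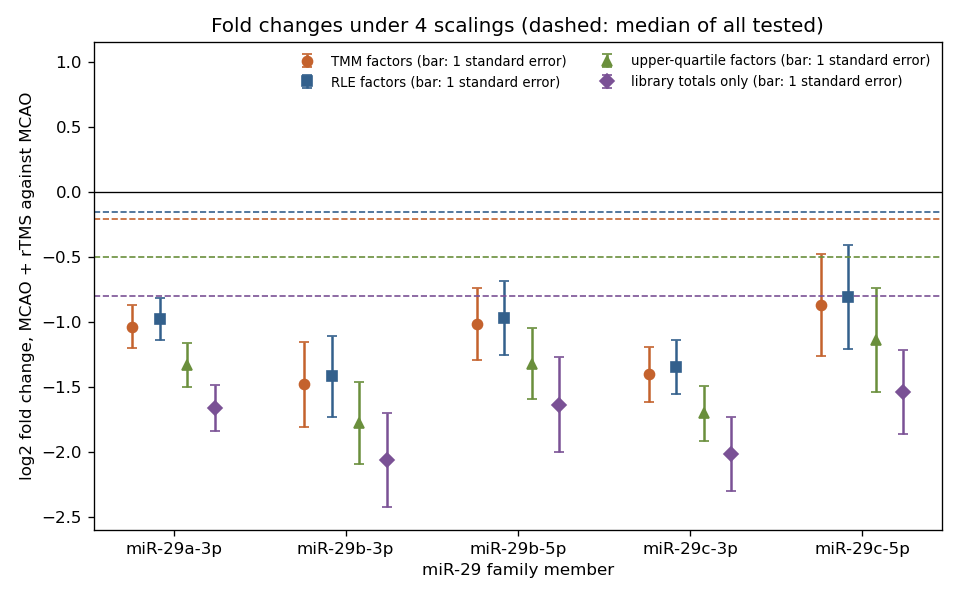
Log2 fold change of the 5 tested members under 4 ways of scaling the libraries, with bars of 1 standard error and, in the same color, a dashed line at the median of all 452 tested miRNAs. Each member lies below 0 and below the median of its own scaling, from -0.98 to -1.66 for miR-29a-3p.

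The members differed more in counted level than in response. Ordered by level in the MCAO group, miR-29a-3p came first, followed by miR-29b-3p, miR-29b-5p, miR-29c-3p and miR-29c-5p. miR-29a-3p and miR-29b-3p each stood apart from the next member in all libraries. The ranges of miR-29b-5p, miR-29c-3p and miR-29c-5p overlapped in the MCAO group, so that their order is not fixed by these data. In the MCAO + rTMS group, miR-29b-5p was above miR-29c-3p without overlap, and miR-29c-5p overlapped with both.

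Summed, the 3p arms made up 8062, 8162 and 7423 CPM in the MCAO libraries and 4224, 3391 and 3832 CPM in the MCAO + rTMS libraries. The sum fell from 7882 ± 401 CPM to 3815 ± 417 CPM (SD, n = 3 each), or 2.07-fold. As an unscaled share of all counts, it went from 0.981% ± 0.0476 to 0.308% ± 0.0506 (SD, n = 3 each), or 3.19-fold. Most counts with the shared seed were of miR-29a-3p, with 97.4% ± 0.418 of the 3p counts under MCAO alone and 98.0% ± 0.527 after rTMS. miR-29b-3p held 2.10% ± 0.432 and 1.55% ± 0.474, and miR-29c-3p 0.524% ± 0.0615 and 0.410% ± 0.0897 (SD, n = 3 each). These are shares of counts, and whether counts of different miRNAs measure their amounts equally was not tested.

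Ratios of members within a library do not depend on the scaling and show whether the members fell by different amounts. The count of miR-29a-3p was 39.3, 43.8 and 60.2 times that of miR-29b-3p in the MCAO libraries, and 47.7, 65.7 and 89.3 times in the MCAO + rTMS libraries. It was 175, 215 and 174 times that of miR-29c-3p in the MCAO libraries, and 230, 199 and 313 times in the MCAO + rTMS libraries. In both ratios the MCAO + rTMS mean was higher, but the groups overlapped. On the log2 scale, miR-29a-3p over miR-29b-3p went from 5.55 ± 0.32 to 6.03 ± 0.45 (SD, n = 3 each), a difference of 0.48 (two-sided exact permutation test, p = 0.2, adjusted p = 0.4 over 4 ratios). miR-29a-3p over miR-29c-3p went from 7.54 ± 0.17 to 7.92 ± 0.33 (SD, n = 3 each), a difference of 0.38 (two-sided exact permutation test, p = 0.2, adjusted p = 0.4). For miR-29b-3p over miR-29c-3p, the difference was -0.10 (two-sided exact permutation test, p = 0.9, adjusted p = 1.0). With 3 against 3 libraries the exact test cannot go below p = 0.1, so that none of these ratios could have passed, and a different fall of the 3 members was not shown. The ratio of miR-29a-5p to miR-29c-5p was not interpretable, as miR-29a-5p was at 0 in 5 libraries.

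The balance of the 2 arms of a hairpin was compared as log2(3p count/5p count) with limma over the 121 hairpins with a mean count of at least 20 on both arms, of which 47.1% changed at an adjusted p under 0.05. For miR-29c the balance was 0.30, -0.38 and 0.58 in the MCAO libraries and 0.42, 0.19 and -1.48 in the MCAO + rTMS libraries. Both arms were thus counted at a similar number, and the 3p arm made up between 43.4% and 59.9% of their counts in 5 libraries and 26.4% in MCAO + rTMS replicate 3. The difference of -0.45 (standard error 0.54, 95% confidence interval -1.74 to 0.83, adjusted p = 0.533 with limma) did not pass the test and turned to 0.14 without that library. For miR-29b, added after its values were seen, the balance was 2.19, 1.74 and 0.78 in the MCAO libraries and 1.47, 0.64 and 1.13 in the MCAO + rTMS libraries. Its difference of -0.49 (standard error 0.42, 95% confidence interval -1.49 to 0.51, adjusted p = 0.393 with limma) did not pass either. The miR-29b value sets a 3p arm from both clusters against the 5p arm of Mir29b2 alone. The intervals leave room for changes of the arm balance of more than 1 log2 unit downward, so that an equal fall of both arms was not shown.

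**Figure D4:**
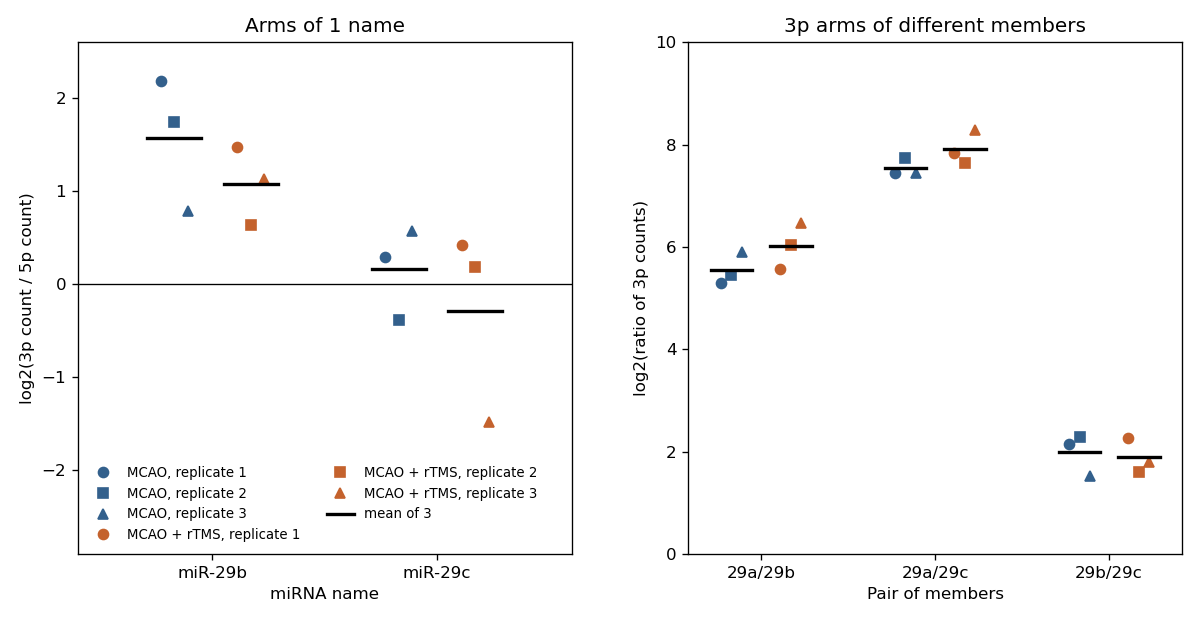
Left, log2 of the 3p count over the 5p count for miR-29b and miR-29c, and right, log2 of the count ratio of 3p arms of different members; each mark is 1 library, colored by group, with the bar at the mean of 3. In each of the 5 comparisons the MCAO and MCAO + rTMS libraries overlap, and MCAO + rTMS replicate 3 stands apart at -1.48 for miR-29c.

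All 6 counts of miR-29b-5p, of miR-29c-3p and of miR-29c-5p were even numbers, whereas 3 of 6 were even for miR-29a-3p and for miR-29b-3p. Of the 399 miRNAs above 0 in all libraries, 29 had only even counts and 6 only odd counts. Halving the counts of all 29 gave log2 fold changes of -1.04 for miR-29b-5p, -1.43 for miR-29c-3p and -0.90 for miR-29c-5p, with the same 4 members called. Their levels against miR-29a-3p and miR-29b-3p depend on it: with halved counts, miR-29c-3p was at 20.6 CPM under MCAO alone and 7.77 CPM after rTMS on the same scale, and the miR-29a-3p count was 350, 430 and 347 times the miR-29c-3p count in the MCAO libraries. How reads that match several positions or miRNAs were counted is not given in the sources used here.

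For each member, the miRNAs with the most similar pattern over the 6 libraries were sought among 315 others with a mean of at least 10 CPM, by the root mean square (RMS) difference of centred log2(CPM + 1). For miR-29a-3p these were miR-326-3p (RMS difference 0.0862), miR-301a-5p (0.145) and miR-380-3p (0.148), with log2 fold changes of -0.92, -1.08 and -1.11. miR-29b-3p was nearest to miR-16-5p (0.172), miR-322-5p (0.198) and miR-376b-3p (0.236). miR-29c-3p was nearest to miR-384-5p (0.113), miR-487b-3p (0.117) and miR-410-3p (0.171). The nearest to miR-29b-5p were miR-221-3p (0.140), miR-133a-3p (0.167) and miR-708-5p (0.176), and to miR-29c-5p they were miR-434-5p (0.199), miR-132-5p (0.231) and miR-539-5p (0.243). No member was thus among the 3 nearest of another. From miR-29a-3p, miR-29c-3p came at rank 21, miR-29b-3p at rank 79 and miR-29c-5p at rank 105. From miR-29b-3p, miR-29c-3p came at rank 9 and miR-29a-3p at rank 22. Both arms of miR-29c were far apart, miR-29c-5p being at rank 139 from miR-29c-3p.

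Other miRNAs known to act on the processes that miR-29 is known for were counted as 3 lists. Of 10 miRNAs known to target DNA methylation or chromatin enzymes, 1 was called lower, 2 were called higher and 7 did not pass, where 28.1% of all tested miRNAs were lower and 27.2% higher. The median log2 fold change was 0.20 against -0.21 for all tested miRNAs. miR-143-3p rose from 2452 ± 815 to 5131 ± 1197 CPM (log2 fold change 1.07, adjusted p = 0.0199 with edgeR) and is also the 1 higher call among the vessel markers below. The other higher call was miR-152-3p, of the miR-148 family that targets Dnmt1. miR-212-3p fell from 151 to 92.0 CPM (-0.72, adjusted p = 0.0485 with edgeR), and the abundant miR-26a-5p, known to target Ezh2, was at 23239 and 18619 CPM (-0.32, adjusted p = 0.130 with edgeR). miR-132-3p, from the same cluster as miR-212-3p, was at 2564 and 1907 CPM (-0.43, adjusted p = 0.226 with edgeR). These calls depended on the scaling. Under library totals, 4 of the 10 were called lower and 1 higher, where 46.0% of all tested miRNAs were lower and 12.2% higher, the median turned to -0.44, and miR-143-3p no longer passed (adjusted p = 0.182 with edgeR), as under upper-quartile factors (adjusted p = 0.0517 with edgeR), where the median was -0.082 and 3 of the 10 were lower and 1 higher, beside 38.1% and 18.8% of all tested miRNAs. Under RLE factors, 0 were called lower and 3 higher, beside 26.3% and 28.1% of all.

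Of 10 tested miRNAs known from matrix and fibrosis, 3 were called lower, 1 was called higher and 6 did not pass, with a median of -0.40. The share called lower was close to the 28.1% of all tested miRNAs. The 3 lower calls were miR-133a-3p, its relative miR-133b-3p, and miR-200c-3p. Of the 11 listed miRNAs, 5 were under 10 CPM on average, miR-133b-3p and miR-200c-3p among them. miR-133a-3p, which is also the 1 lower call among the muscle markers below, fell from 40.0 to 18.9 CPM (-1.08, adjusted p = 0.0120 with edgeR). miR-199a-3p rose from 99.7 to 203 CPM (1.03, adjusted p = 0.0288 with edgeR), and this call was lost with library totals only (adjusted p = 0.385 with edgeR) and with upper-quartile factors (adjusted p = 0.0829 with edgeR). The 2 most abundant miRNAs of the list were miR-30c-5p, at 17224 and 13729 CPM (-0.33, adjusted p = 0.387 with edgeR), and the profibrotic miR-21-5p, at 2379 and 1723 CPM (-0.47, adjusted p = 0.0959 with edgeR). miR-21-5p was called lower under upper-quartile factors (-0.76, adjusted p = 0.0178 with edgeR) and under library totals (-1.08, adjusted p = 0.00367 with edgeR). Under both, 5 of the 10 were called lower and 0 higher, beside 38.1% and 46.0% lower among all tested miRNAs, and the median of the list was -0.69 and -0.99.

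Of 13 miRNAs known to act on apoptosis genes, 7 were called lower and 0 higher, and 6 did not pass, beside 28.1% lower among all tested miRNAs, and the median was -0.83. miR-181a-5p, known to target Bcl2-family genes, fell from 15202 to 10244 CPM (-0.57, adjusted p = 0.0267 with edgeR), and miR-24-3p fell from 5950 to 3354 CPM (-0.83, adjusted p = 0.0274 with edgeR). Also called lower were miR-181c-5p and the seed relatives miR-15b-5p, miR-16-5p, miR-195-5p and miR-497-5p. miR-181b-5p was at 3409 and 3209 CPM (-0.09, adjusted p = 0.752 with edgeR), and miR-27b-3p at 2682 and 3888 CPM (0.54, adjusted p = 0.193 with edgeR). Under library totals 11 of the 13 were called lower, beside 46.0% of all tested miRNAs, and under upper-quartile factors 10, beside 38.1%.

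Markers of cell types that the tissue could hold also moved between the groups, and their part in the fall of miR-29 was not tested. These counts stand beside 28.1% lower and 27.2% higher among all tested miRNAs with TMM factors, and 46.0% lower and 12.2% higher with library totals only. Of 5 miRNAs of microglia and leukocytes, 4 were called lower and 0 higher, with 3 of the 5 under 10 CPM on average. The sum of the 5 was 695 to 718 CPM in the MCAO libraries and 312 to 549 CPM in the MCAO + rTMS libraries. Most of that sum was miR-146a-5p, which did not pass, at 618 and 414 CPM (-0.58, adjusted p = 0.0779 with edgeR). Of the 3 neuronal miRNAs, 1, miR-128-3p, was called higher and 0 lower with TMM factors. It was at 212040 CPM under MCAO alone and 341038 CPM after rTMS. miR-124-3p (-0.49, adjusted p = 0.0861 with edgeR) and miR-9a-5p (-0.16, adjusted p = 0.391 with edgeR) did not pass. Both went the other way by point estimate. With library totals only, 0 were called higher and 2, miR-124-3p and miR-9a-5p, were called lower. Of 2 oligodendrocyte miRNAs, miR-219a-2-3p was called higher, at 692 CPM under MCAO alone and 1617 CPM after rTMS. It made up most of their sum, which was 571 to 786 CPM against 963 to 2106 CPM. miR-338-3p went the other way by point estimate, at 21.3 and 12.9 CPM, and did not pass (-0.73, adjusted p = 0.0596 with edgeR). With library totals only, 0 were called higher and 1, miR-338-3p, was called lower. Of 4 vessel miRNAs, 1 was called lower and 1 higher, with sums of 4931 to 9758 CPM against 6344 to 9569 CPM, and 2 were called lower and 0 higher with library totals only. The 2 red blood cell miRNAs analysed went in opposite directions, with sums of 141 to 302 CPM against 513 to 637 CPM. Most of the sum was miR-486, which was called higher, at 170 and 561 CPM. miR-451-5p was called lower, at 31.5 and 10.3 CPM (-1.61, adjusted p = 0.0382 with edgeR). Of 3 muscle miRNAs, 2 were called higher and 1 lower, with sums of 76.8 to 136 CPM against 239 to 391 CPM.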

How the data were processed

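The authors deposited raw counts of reads on 493 mature miRNAs for 6 libraries, without normalization, and the same counts for a selection of 73. Libraries had been prepared by adapter ligation and read on an Illumina HiSeq. The submitters' processing notes name bcl2fastq, BWA, DESeq2 and rn6. The miRNA database and the counting rule are not given in the sources used here. Without molecular identifiers, counts do not stand for independent molecules. Groups and replicate numbers came from the sample labels, which do not say more on how replicates were obtained. P-values therefore measure the spread between these samples.

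Counts were filtered with filterByExpr, which left 452 miRNAs, scaled with TMM factors and compared with edgeR 4.0.16's quasi-likelihood test in R 4.3.3, without a block, with Benjamini-Hochberg adjustment and a threshold of 0.05. The standard error was the log2 fold change divided by the square root of F. Arm balance was log2((3p + 0.5)/(5p + 0.5)) in limma 3.58.1. Ratios of members were tested by exact permutation in scipy 1.17.1 (Python 3.11.15), and figures were drawn with matplotlib 3.10.9. The fits were run on simulated counts with 200 changed miRNAs, drawn with the scaling factors and dispersions fitted here. Such counts cannot test whether the scaling or the counting of the real libraries was right. Total counts of 10492610 to 15411620 per library give the lowest precision near 10 counts.

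The members and lists were chosen with earlier results of these data known. Named miRNAs are all members, the 3 nearest patterns of each, and, with values, 4 of each list, the 2 most abundant that passed and the 2 most abundant that did not. Other called members of a list are named without values. The 2 oligodendrocyte, 3 neuronal and 2 red blood cell miRNAs and miR-146a-5p are named with values. These choices were made after the values were seen. miR-143-3p and miR-133a-3p each stand in a process list and a marker list. RefSeq sequences (GRCr8) matched 451 of 493 names. Alternatives were other scalings, filters, DESeq2 1.42.0, limma-voom, the study's two-sample test with equal variances, run on log2 levels, a replicate block, each library left out, and halving of all-even counts, which was chosen after seeing the data.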

Additional observations from a re-analysis of the deposited data

How the results depend on the processing

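miR-29a-3p, miR-29b-3p and miR-29c-3p were called lower under all 17 alternatives, at log2 fold changes of -1.66 to -0.92, -2.06 to -1.24 and -2.01 to -1.22. Over the same 17, between 179 and 263 miRNAs were called in all, against 250, and between 3 and 5 members. The split of calls moved with the scaling: 123 higher and 127 lower by TMM, 55 and 208 by library totals, 85 and 172 by upper quartiles. miR-29b-5p was not called without MCAO replicate 2 or 3, with the two-sample test of equal variances (adjusted p = 0.0619) or with the block. miR-29c-5p became called by library totals, by upper quartiles, with a mean count above 200 (-0.99, adjusted p = 0.0370 with edgeR) and without MCAO + rTMS replicate 3. The cause was not tested. Deviations of same-numbered libraries correlated at 0.20, -0.12 and -0.11, and only replicate 1 of 3 matched its own number best. With 3 libraries in each group, this cannot settle whether the replicate numbers pair the libraries. With the replicate block, 180 miRNAs and 3 members were called, miR-29b-5p having an adjusted p of 0.0665 with edgeR, and 46 hairpins changed arm balance.

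Changed arm balance was called for 57 of 121 hairpins, for 31 of 62 with a mean of at least 200 counts on both arms, since fewer were tested, and for 47 to 64 with 1 library left out. With 1 library left out, the arm balance difference ranged from -0.81 to 0.14 for miR-29c and from -0.88 to -0.18 for miR-29b. The log2 ratio difference then ranged from 0.25 to 0.70 for miR-29a-3p over miR-29b-3p, from 0.19 to 0.52 for miR-29a-3p over miR-29c-3p, and from -0.33 to 0.051 for miR-29b-3p over miR-29c-3p, which was 0.051 without MCAO replicate 2 and 0.047 without MCAO + rTMS replicate 2. Depth limits miR-29a-5p, which could not be tested.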

Other observations

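The 29 miRNAs with only even counts in all 6 libraries included both arms of miR-340, miR-434, miR-450b, miR-322, miR-503 and miR-351 beside both arms of miR-29c. A further 4 miRNAs, namely miR-344b-5p, miR-135a-5p, miR-542-3p and miR-542-5p, had only counts that are multiples of 3. Levels of these rows relative to other miRNAs of the table rest on how their reads were counted, which was not tested.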
